A study of Mus musculus with 4 samples.

Results

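Aminoacyl-tRNA synthetases are the enzymes that attach each amino acid to its transfer RNA, and 38 of their genes were followed here together with 8 genes that make serine, glycine, asparagine and proline and are known targets of the transcription factor ATF4. The 46 genes were chosen by symbol from the 23238 gene symbols of the count files. Synthetase symbols were those with 1 capital letter followed by "ars", with or without a closing 1 or 2, plus Eprs, Farsa, Farsb and Tarsl2. The 8 amino-acid genes were Asns, Psat1, Phgdh, Psph, Shmt2, Mthfd2, Pycr1 and Aldh18a1. By textbook location, 21 of the synthetases are cytosolic and 17 are mitochondrial. Gars and Kars, which serve both compartments, were counted as cytosolic. All 46 genes passed the filter on low counts.

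Transcripts were counted by RNA sequencing in mammary gland tumours of female FVB mice at 14 weeks of age. All 4 tumour samples carry PyMT, the polyoma virus middle T antigen, an oncogene used to induce mammary carcinoma. There were 2 samples labelled Nr1d1+/+ and 2 labelled Nr1d1-/-, so the comparison asks what differs in PyMT tumours that lack Nr1d1, the gene of the clock repressor REV-ERBα. The promoter that drives PyMT, the exons removed from Nr1d1 and whether each sample is 1 tumour of 1 animal are unstated in the labels, so the p-values reflect no more than how far these 4 samples spread, and that spread may be technical.

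Cells charge transfer RNAs in the cytosol and, with a separate set of nuclear-encoded enzymes, in mitochondria. When charged transfer RNAs run short, the kinase GCN2 phosphorylates the initiation factor eIF2, general translation falls, and translation of ATF4 rises. ATF4 then induces amino-acid transporters, many cytosolic synthetases and the enzymes of serine, asparagine and proline synthesis. Other eIF2 kinases feed into the same response, which is therefore called the integrated stress response. Since ATF4 is controlled largely in translation, its transcript level says little about its protein.

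Total counts were between 15905404 and 19116279 per library. Values below are CPM, counts scaled to a common library total with TMM factors, log2 folds compare Nr1d1-/- libraries with Nr1d1+/+ ones, with a standard error (SE), and a gene was called at an edgeR adjusted p under 0.05, adjusted over all 14801 tested genes. Nr1d1 itself was at 20.15 and 10.3 CPM in the Nr1d1+/+ libraries and at 10.6 and 12.8 CPM in the Nr1d1-/- libraries. Pairs of values here and below are in the order replicate 1, replicate 2. It overlapped between the genotypes, and without knowing which exons are deleted it does not check the labels, so every direction rests on the labels alone. Of 8 luminal epithelial markers none was at 0 in any library, and with TMM they went both ways. Krt8, Krt18 and Krt19 rose while Cdh1, Erbb2 and Erbb3 fell. After removing trends of counts with GC content and length of the transcript, Krt8, Krt18 and Cdh1 did not pass (edgeR adjusted p = 0.102, 0.102 and 0.0793). Krt19, Erbb2 and Erbb3 kept their calls. The summed level of 6 skeletal muscle markers was 654 CPM in Nr1d1-/- replicate 1 and 1.53 to 2.92 CPM in the other 3 libraries, where 1 to 3 of the 6 were at 0. The summed level of 5 red blood cell markers was 453 and 581 CPM in the Nr1d1+/+ libraries and 2016 and 2194 CPM in the Nr1d1-/- libraries. Counts of Rn45s, the precursor of ribosomal RNA, took 2.94% and 3.39% of the Nr1d1+/+ libraries and 4.36% and 7.64% of the Nr1d1-/- libraries. The summed level of 3 basal epithelial markers was 111 and 127 CPM against 267 and 293 CPM, but 1 of them was called higher and 1 lower. That of 7 leukocyte markers was 262 to 304 CPM against 392 to 572 CPM. For 4 adipocyte markers it was 24.65 to 44.8 CPM against 88.3 to 118 CPM. Sums for fibroblast markers were 440 and 830 CPM against 881 and 927 CPM. Endothelial sums were 29.7 and 37.1 CPM against 31.2 and 42.6 CPM. Milk secretion sums were 13269 and 13694 CPM against 15167 and 14168 CPM. The part of these differences in the results below was not tested, and in whole tumours fewer cells of a type and less RNA per cell cannot be told apart.

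The genes did not move as a block. Of the 46 genes, 10 rose, 5 fell and 31 did not pass, so 32.6% were called, against 33.9% of all tested genes (16.5% higher and 17.3% lower). The genotypes did not overlap for 32 of the 46 genes, which is 69.6%, against 70.5% of all tested genes. Both shares were near the background, so the count of calls is not a result about these genes. The median log2 fold was 0.19 over the 46 genes and -0.01 over all tested genes; scaled by library size only, these medians were -0.19 and -0.38. Where a count or a call named below changed with it, values are also given for 2 other fits, one after removing from every library the trends of counts with GC content and length of the transcript, the other with library size only in place of TMM. With TMM, the 33.9% of all tested genes called, with 16.5% higher and 17.3% lower, is the background for every list below. For counts of calls in the other fits, the background was 11.4% higher and 10.8% lower after GC and length correction. With library size only it was 8.65% higher and 29.8% lower. Between replicates, the median absolute log2 difference over the 46 genes was 0.20 for the Nr1d1+/+ libraries and 0.22 for the Nr1d1-/- libraries. Over all tested genes it was 0.25 and 0.31, there with 0.5 CPM added to each value.

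Among the 21 cytosolic synthetases, 5 rose, 4 fell and 12 did not pass, with a median log2 fold of 0.09. That is 42.9% called, against 33.9% of all tested genes. The genes that rose load cysteine (Cars), valine (Vars), methionine (Mars), tyrosine (Yars) and serine (Sars). Those that fell load isoleucine (Iars), aspartate (Dars), asparagine (Nars) and, by similarity, threonine (Tarsl2). The summed level of the 21 genes was 2417 and 2474 CPM in the Nr1d1+/+ libraries and 2794 and 2611 CPM in the Nr1d1-/- libraries.

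**Figure D1:**
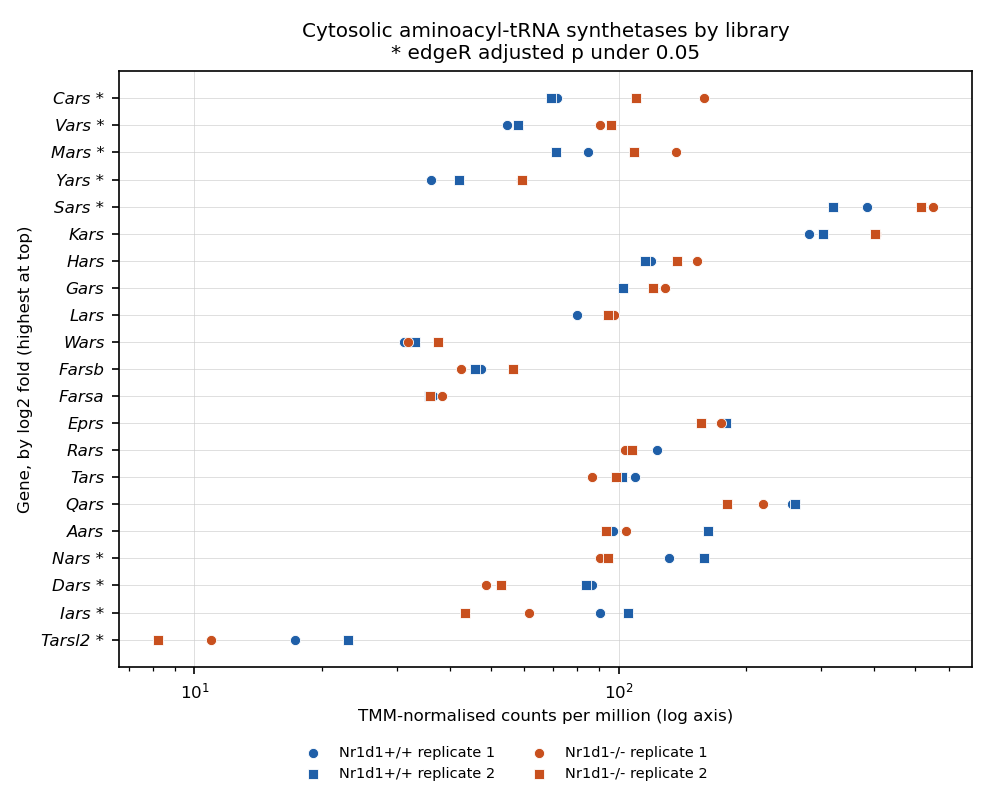
Levels of the 21 cytosolic synthetase genes in each library, as TMM-normalised CPM on a log axis, ordered by log2 fold. Blue points are the Nr1d1+/+ libraries and orange-red points the Nr1d1-/- libraries; stars mark the 9 called genes, in which the colours do not overlap, and most genes between them lie within a narrow range.

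Per kilobase of transcript, the highest levels of the cytosolic set were those of Kars, at 133 CPM per kb in Nr1d1+/+ and 185 in Nr1d1-/-, and of Sars, at 98.7 and 149 CPM per kb (means of 2 libraries). Sars, the seryl-tRNA synthetase gene, was at 385 and 320.1 CPM in the Nr1d1+/+ libraries and at 552 and 515.5 CPM in the Nr1d1-/- libraries. Both Nr1d1-/- libraries lay above both Nr1d1+/+ libraries (log2 fold 0.60, SE 0.18, edgeR adjusted p = 0.0325).

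Cars had the largest rise of the cytosolic set. It was at 71.5 and 69.2 CPM in the Nr1d1+/+ libraries and at 159 and 110 CPM in the Nr1d1-/- libraries. Nr1d1-/- replicate 1 was the highest library (log2 fold 0.935, SE 0.21, edgeR adjusted p = 0.0116), and without it the log2 fold was 0.64 and still passed (edgeR adjusted p = 0.044).

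Vars was at 54.6 and 57.8 CPM against 90.2 and 96 CPM (log2 fold 0.73, SE 0.18, edgeR adjusted p = 0.01465). Mars was at 84.9 and 71.25 CPM against 137 and 109 CPM (log2 fold 0.65, SE 0.195, edgeR adjusted p = 0.032). Yars was at 36.1 and 42 CPM against 59 and 59.3 CPM (log2 fold 0.60, SE 0.19, edgeR adjusted p = 0.0398). In each of these 3 genes the lower Nr1d1-/- library lay above the higher Nr1d1+/+ library.

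Among the genes that fell, Iars was at 90.2 and 106 CPM in the Nr1d1+/+ libraries and at 61.6 and 43.4 CPM in the Nr1d1-/- libraries (log2 fold -0.90, SE 0.22, edgeR adjusted p = 0.0148). Dars was at 86.6 and 84 CPM against 48.8 and 52.7 CPM (log2 fold -0.75, SE 0.18, edgeR adjusted p = 0.0139). Nars was at 132 and 159 CPM against 90.2 and 94.6 CPM (log2 fold -0.65, SE 0.18, edgeR adjusted p = 0.0239). The Nr1d1-/- libraries were the lower pair in all 3 genes. Of the Iars transcript, 26.2% is shared in stretches of 50 bases with Gm4849, so its counts are uncertain to that extent.

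Threonine has 3 genes, and they did not move alike. Tarsl2, a cytosolic paralog of Tars, was at 17.3 and 23 CPM in the Nr1d1+/+ libraries and at 10.9 and 8.19 CPM in the Nr1d1-/- libraries (log2 fold -1.08, SE 0.29, edgeR adjusted p = 0.0213), and the difference between its fold and those of its paralogs was not tested. Tars itself was at 109 and 102 CPM against 86.5 and 98.85 CPM, with a 95% interval of the log2 fold from -0.59 to 0.21. The mitochondrial Tars2 was at 35.2 and 31 CPM against 29.1 and 38.35 CPM and overlapped between the genotypes. Per kilobase of transcript, Tarsl2 had the lowest level of the cytosolic set in both genotypes, 6.31 CPM per kb in Nr1d1+/+ and 2.99 in Nr1d1-/-.

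Of the 12 cytosolic genes that did not pass, Kars, the lysyl-tRNA synthetase of both compartments, came nearest: 281 and 303 CPM against 406 and 403 CPM (log2 fold 0.47, SE 0.17, edgeR adjusted p = 0.0575). The genotypes did not overlap for Kars, and it passed with DESeq2 (adjusted p = 0.0429). It did not pass after GC and length correction (log2 fold 0.38, edgeR adjusted p = 0.133), with library size only (0.088, edgeR adjusted p = 0.701) or in any fit without 1 library (edgeR adjusted p from 0.121 to 0.267). Gars, the glycyl-tRNA synthetase of both compartments, was at 102 and 103 CPM against 129 and 121 CPM (log2 fold 0.28, SE 0.17, edgeR adjusted p = 0.22). Eprs, which joins glutamyl and prolyl charging in 1 protein, was at 177 and 179 CPM against 174 and 157 CPM, with a 95% interval of the log2 fold from -0.49 to 0.27. Wars, the tryptophanyl enzyme known to be induced by interferon gamma, was at 31.1 and 33 CPM against 31.8 and 37.4 CPM and overlapped between the genotypes.

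Aars, the alanyl enzyme, depended on 1 library. It was at 97.2 CPM in Nr1d1+/+ replicate 1 and at 162 CPM in replicate 2, against 104 and 93.6 CPM in the Nr1d1-/- libraries. The log2 fold of Aars, -0.395 (SE 0.245, edgeR adjusted p = 0.2405), became -0.76 without Nr1d1+/+ replicate 1, which passed (edgeR adjusted p = 0.0321), and 0.01 without Nr1d1+/+ replicate 2. Exons of Aars share 1326 bases with those of Exosc6 on the same strand. The other 7 genes that did not pass, Farsa, Farsb, Hars, Lars, Qars, Rars and Tars, had log2 folds from -0.37 (Qars) to 0.31 (Hars).

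Only Cars kept its call without each library in turn. Without Nr1d1+/+ replicate 1, Mars (edgeR adjusted p = 0.0511), Vars (0.0847) and Yars (0.251) did not pass. Without Nr1d1+/+ replicate 2, Mars (edgeR adjusted p = 0.184), Sars (0.199), Vars (0.0622), Yars (0.1001), Dars (0.05001), Iars (0.0585), Nars (0.149) and Tarsl2 (0.144) did not. Without Nr1d1-/- replicate 1, in which muscle markers were high, Mars (edgeR adjusted p = 0.127), Sars (0.101), Yars (0.0771) and Nars (0.0665) did not. Without Nr1d1-/- replicate 2, Sars (edgeR adjusted p = 0.0548), Yars (0.072) and Tarsl2 (0.0618) did not.

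In the cytosol, 8 synthetases are known to sit in a multi-enzyme complex, held together by the scaffold proteins of Aimp1, Aimp2 and Eef1e1. This subset was picked out after the values were seen. Of the 8 enzymes (Eprs, Iars, Lars, Mars, Qars, Rars, Kars and Dars), Mars rose, Iars and Dars fell and 5 did not pass, with a median log2 fold of -0.12. Of the 3 scaffold genes, Aimp2 was at 23.7 and 25.2 CPM against 53.1 and 54.2 CPM and rose (log2 fold 1.13, SE 0.195, edgeR adjusted p = 0.004315). Aimp1 had a log2 fold of -0.07 and Eef1e1 one of -0.39, and neither passed (edgeR adjusted p = 0.7885 and 0.227). Of the 8 enzymes none was called after GC and length correction, and with library size only none was called higher and 5 lower. Aimp2 passed in both fits, with log2 folds of 0.63 and 0.75 (edgeR adjusted p = 0.0456 and 0.0188), while Eef1e1 was called lower with library size only (-0.77, edgeR adjusted p = 0.0313).

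Among the 17 mitochondrial synthetases, Lars2, Ears2 and Cars2 rose, Iars2 fell and 13 did not pass, with a median log2 fold of 0.315. That is 23.5% called, against 33.9% of all tested genes. Without Lars2, the summed level of the other 16 genes was 291.3 and 291.2 CPM in the Nr1d1+/+ libraries and 317 and 318 CPM in the Nr1d1-/- libraries.

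**Figure D2:**
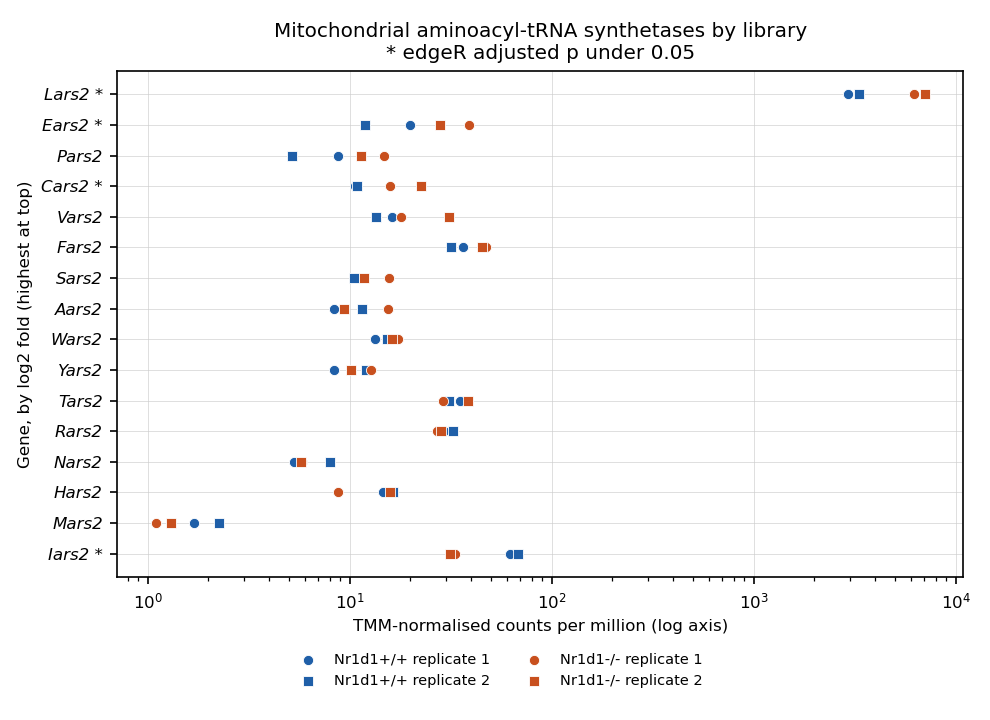
Levels of mitochondrial synthetase genes in each library, as TMM-normalised CPM on a log axis, ordered by log2 fold. Blue points are the Nr1d1+/+ libraries and orange-red points the Nr1d1-/- libraries; stars mark the 4 called genes, and Lars2 stands at 2916 to 7044 CPM, far to the right of the other genes.

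Lars2, the mitochondrial leucyl-tRNA synthetase gene, was at 2916 and 3324 CPM in the Nr1d1+/+ libraries and at 6190 and 7044 CPM in the Nr1d1-/- libraries (log2 fold 1.085, SE 0.24, edgeR adjusted p = 0.0105). It held 90.9% to 95.7% of the summed level of the mitochondrial set in each library, and its mean level per kilobase was 66.1 times that of Fars2, the next of the set. Lars2 is a plus-strand gene of chromosome 9 (123366927 to 123462666, GRCm38). Its level moved with that of Rn45s across the genotypes: Rn45s was at 26586 and 28868 CPM in the Nr1d1+/+ libraries and at 50818 and 85386 CPM in the Nr1d1-/- libraries. There were 0.11 and 0.115 Lars2 counts per Rn45s count in the Nr1d1+/+ libraries and 0.122 and 0.0825 in the Nr1d1-/- libraries. Within the Nr1d1-/- libraries, Lars2 rose less from replicate 1 to replicate 2 than Rn45s did, so the ratio was lower in replicate 2. The part of ribosomal RNA reads in the counts of Lars2 was not tested, and its level is given here as a count of that symbol, not as a level of the enzyme's messenger.

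Iars2, the mitochondrial isoleucyl enzyme, was the gene of the 46 with the lowest adjusted p and the only one of them called in the same direction in all 10 alternative fits. It was at 62 and 68.5 CPM in the Nr1d1+/+ libraries and at 33.4 and 31.5 CPM in the Nr1d1-/- libraries (log2 fold -1.01, SE 0.19, edgeR adjusted p = 0.005805). Both Nr1d1-/- libraries lay far below both Nr1d1+/+ libraries. Iars2 is a minus-strand gene of chromosome 1 (185284726 to 185329396, GRCm38), and 2034 bases of its exons, 22.9% of them, overlap exons of Rab3gap2 on the opposite strand. The labels do not state whether strand was used in counting. Rab3gap2 fell too, from 44 and 50.9 CPM to 27.2 and 26.7 CPM (log2 fold -0.82, SE 0.20, edgeR adjusted p = 0.0157), so the counts of both genes are uncertain. Rab3gap2 did not pass after GC and length correction (log2 fold -0.38, edgeR adjusted p = 0.181).

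Ears2, the mitochondrial glutamyl enzyme, was at 20 and 11.9 CPM in the Nr1d1+/+ libraries and at 39.2 and 27.9 CPM in the Nr1d1-/- libraries (log2 fold 1.07, SE 0.30, edgeR adjusted p = 0.0258). The genotypes did not overlap although replicates differed by more than for most of the set. Cars2, the mitochondrial cysteinyl enzyme, was at 10.6 and 10.9 CPM against 15.9 and 22.65 CPM (log2 fold 0.85, SE 0.28, edgeR adjusted p = 0.0428). Carkd, whose exons overlap 422 bases of Cars2 on the opposite strand, rose as well (log2 fold 0.85, SE 0.21, edgeR adjusted p = 0.0163). Carkd did not pass after GC and length correction (log2 fold 0.31, edgeR adjusted p = 0.304) or with library size only (0.47, edgeR adjusted p = 0.123).

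Calls of this set also changed with single libraries. Ears2 did not pass without Nr1d1+/+ replicate 2 (log2 fold 0.73, edgeR adjusted p = 0.148) or Nr1d1-/- replicate 1 (0.81, edgeR adjusted p = 0.0898). Cars2 did not pass without either Nr1d1+/+ library in turn (edgeR adjusted p = 0.164 and 0.154) or without Nr1d1-/- replicate 2 (0.191), the last with a log2 fold of 0.57. Lars2 did not pass without Nr1d1-/- replicate 2 (log2 fold 0.99, edgeR adjusted p = 0.0647).

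The 13 mitochondrial genes that did not pass had log2 folds from -0.71 to 0.90. Pars2, the prolyl enzyme, was at 8.8 and 5.22 CPM against 14.8 and 11.4 CPM (log2 fold 0.90, SE 0.34, edgeR adjusted p = 0.0733) and did not overlap. Vars2, the valyl enzyme, was at 16.1 and 13.5 CPM against 18 and 30.9 CPM (log2 fold 0.73, SE 0.30, edgeR adjusted p = 0.0902), and without Nr1d1-/- replicate 1 its log2 fold was 1.06 and passed (edgeR adjusted p = 0.0183). Without Nr1d1-/- replicate 2, its highest library, the log2 fold of Vars2 was 0.29 (edgeR adjusted p = 0.495). Fars2, the phenylalanyl enzyme, was at 36.6 and 31.9 CPM against 47.1 and 45.2 CPM (log2 fold 0.43, SE 0.20, edgeR adjusted p = 0.122).

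Mars2, the methionyl enzyme, had the lowest level per kilobase of all 46 genes, 0.175 CPM per kb in Nr1d1+/+ and 0.106 in Nr1d1-/-, with 36 and 47 counts in the Nr1d1+/+ libraries and 15 and 21 in the Nr1d1-/- libraries. The transcript used for its length has 11294 bases, the longest among the genes followed. The genotypes did not overlap for Mars2, but it did not pass (log2 fold -0.71, edgeR adjusted p = 0.341). Its 95% interval ran from -1.94 to 0.53 and included 0, so its direction is not settled. Hars2, the histidyl enzyme, was at 14.7 and 16.5 CPM against 8.8 and 15.9 CPM, with Nr1d1-/- replicate 1 apart from the other 3 libraries. Aars2, Nars2, Rars2, Sars2, Tars2, Wars2 and Yars2 had log2 folds between -0.21 (Nars2) and 0.365 (Sars2).

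For 14 amino acids the files held a cytosolic gene and a mitochondrial gene with the same symbol plus a closing 2. Phenylalanine (Farsa, Farsb and Fars2) and glutamate and proline (Eprs, Ears2 and Pars2) were left out by this rule. Both members had the same sign of log2 fold in 9 of these 14 pairs. Both were called in 2 pairs: Cars and Cars2 rose together, and Iars and Iars2 fell together. Mars and Mars2 were at 0.65 and -0.71, where the cytosolic gene was called and Mars2 was not, and the difference between them was not tested. Leaving out the leucine pair, the cytosolic gene had the higher level per kilobase in all 13 other pairs in both genotypes, by a median factor of 4.065 in Nr1d1+/+ and 4.62 in Nr1d1-/-. In Nr1d1+/+ that factor ran from 1.85 for Iars over Iars2 to 151 for Mars over Mars2. The factor for Mars2 depends on its transcript of 11294 bases, the longest among the genes followed.

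Among the 8 amino-acid synthesis genes known as ATF4 targets, Psat1 and Phgdh rose, none fell and 6 did not pass, with a median log2 fold of 0.255. That is 25% called, against 33.9% of all tested genes. The genes that rose encode the first and second steps of serine synthesis from glycolytic 3-phosphoglycerate.

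**Figure D3:**
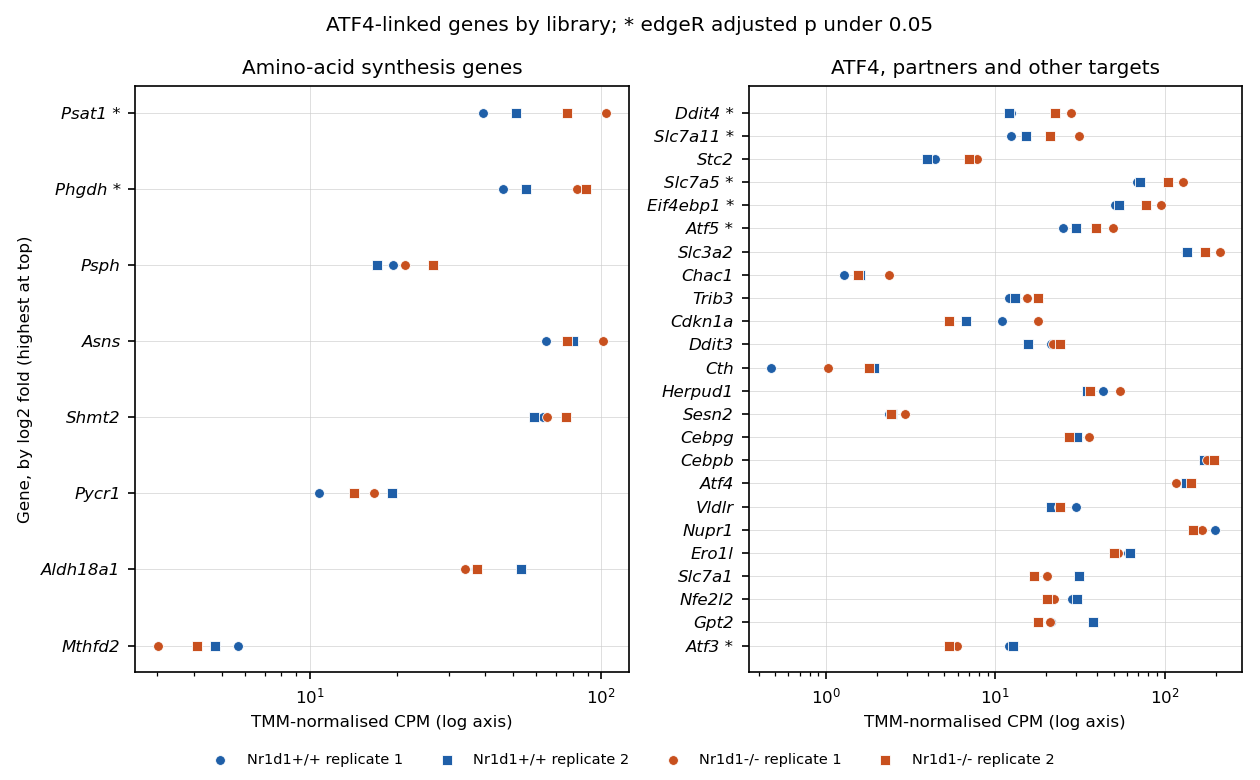
Levels of the 8 amino-acid synthesis genes (left) and of ATF4, its partners and other known targets (right) in each library, as TMM-normalised CPM on log axes, ordered by log2 fold. Blue points are the Nr1d1+/+ libraries, orange-red points the Nr1d1-/- libraries and stars the called genes; in the left panel only Psat1 and Phgdh carry a star, and Atf4 on the right overlaps between the genotypes.

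Psat1, the phosphoserine aminotransferase, was at 39.2 and 50.9 CPM in the Nr1d1+/+ libraries and at 104 and 76.4 CPM in the Nr1d1-/- libraries (log2 fold 1.003, SE 0.23, edgeR adjusted p = 0.0112). Phgdh, the phosphoglycerate dehydrogenase that opens the pathway, was at 46.3 and 55.35 CPM against 82.9 and 88.9 CPM (log2 fold 0.76, SE 0.19, edgeR adjusted p = 0.0159). Both genes were higher in both Nr1d1-/- libraries. Without Nr1d1+/+ replicate 1 neither passed: Psat1 had a log2 fold of 0.79 (edgeR adjusted p = 0.05405) and Phgdh one of 0.60 (edgeR adjusted p = 0.115).

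Of the Phgdh transcript, 81.3% is shared in stretches of 50 bases with annotated transcripts of 23 other genes, led by Gm7901. How such reads were split or dropped in counting is unstated, so the level of Phgdh is uncertain. Psph, the phosphatase of the last step of serine synthesis, was at 19.4 and 17.1 CPM against 21.2 and 26.4 CPM. It did not overlap and did not pass (log2 fold 0.39, SE 0.24, edgeR adjusted p = 0.236), and 452 bases of its exons overlap Cct6a on the opposite strand.

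Asns, the asparagine synthetase and a classical ATF4 target, was at 64.7 and 80.3 CPM in the Nr1d1+/+ libraries and at 102 and 76.6 CPM in the Nr1d1-/- libraries. Nr1d1-/- replicate 2 lay below Nr1d1+/+ replicate 2, so the groups overlapped (log2 fold 0.30, SE 0.21, 95% interval -0.18 to 0.77, edgeR adjusted p = 0.303). Its counterpart in charging, Nars, which loads asparagine, fell as given above.

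The mitochondrial folate enzymes did not pass either. Shmt2, which splits serine into glycine and a methylene group, was at 63.1 and 58.7 CPM against 65.3 and 75.9 CPM (log2 fold 0.21, SE 0.18, edgeR adjusted p = 0.396). Mthfd2, which oxidises that group further, was scarce at 5.68 and 4.74 CPM against 3.01 and 4.09 CPM (log2 fold -0.54, SE 0.39, edgeR adjusted p = 0.306). The point estimates had opposite signs, and each 95% interval included 0.

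The proline genes likewise showed no call with TMM. Aldh18a1, which opens proline synthesis from glutamate, was at 37.2 and 53.3 CPM against 34.2 and 37.7 CPM (log2 fold -0.33, SE 0.23, edgeR adjusted p = 0.288), and with library size only it was called lower (-0.72, edgeR adjusted p = 0.0436). Pycr1, which closes it, was at 10.8 and 19.1 CPM against 16.6 and 14.2 CPM. For Pycr1 both Nr1d1-/- libraries lay between the Nr1d1+/+ libraries, and the 95% interval of the log2 fold ran from -0.68 to 0.76.

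The promoters bear on which of these genes carry the letters of an ATF4 site. ATF4 pairs with C/EBP proteins on C/EBP-ATF response elements, whose core was searched as TGATGNAA on both strands in the 250 bases before each annotated start (RefSeq, GRCm38.p6). Of the 46 genes, 36 matched a promoter by symbol, and 5 of these held the core (13.9%), against 3.91% of all 27025 genes with a promoter there. They were 3 of 14 cytosolic synthetases (Tars, Gars and Aars), 2 of the 8 amino-acid genes (Asns and Pycr1) and none of 14 mitochondrial synthetases. None of the 5 genes was called between the genotypes with TMM, and Aars and Tars were called lower with library size only (edgeR adjusted p = 0.0353 and 0.0347). Of the genes called with TMM, Cars, Vars and Nars had no promoter matched by symbol and were not searched. The sites of Asns, Pycr1, Tars and Gars are shown with 11 bases on each side where the window allowed, on the strand of the gene, with the match in capitals.
Asns, chr6:7693214-7693243, minus strand: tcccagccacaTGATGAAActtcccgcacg
Pycr1, chr11:120643833-120643862, minus strand: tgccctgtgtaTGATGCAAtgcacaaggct
Tars, chr15:11399659-11399684, minus strand: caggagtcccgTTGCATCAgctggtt
Gars, chr6:55037960-55037989, plus strand: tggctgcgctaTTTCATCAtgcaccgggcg

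The whole 250 bases before the start of Phgdh (chr3:98339970-98340219, minus strand) and of the first of the annotated starts of Psat1 (chr19:15925060-15925309, minus strand) are shown as the promoters of the genes that rose, with no match to the core, beside that of Asns (chr6:7693210-7693459, minus strand), with its match in capitals.
Phgdh: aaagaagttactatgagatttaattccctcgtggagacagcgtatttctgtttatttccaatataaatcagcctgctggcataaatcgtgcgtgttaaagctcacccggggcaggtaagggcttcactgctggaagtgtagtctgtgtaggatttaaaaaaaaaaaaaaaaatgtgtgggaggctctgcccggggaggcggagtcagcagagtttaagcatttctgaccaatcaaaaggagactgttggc
Psat1: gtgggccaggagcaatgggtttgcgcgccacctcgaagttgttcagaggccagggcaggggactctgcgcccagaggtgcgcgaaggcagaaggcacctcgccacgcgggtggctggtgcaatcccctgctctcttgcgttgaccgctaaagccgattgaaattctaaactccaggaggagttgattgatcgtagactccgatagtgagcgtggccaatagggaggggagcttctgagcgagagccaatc
Asns: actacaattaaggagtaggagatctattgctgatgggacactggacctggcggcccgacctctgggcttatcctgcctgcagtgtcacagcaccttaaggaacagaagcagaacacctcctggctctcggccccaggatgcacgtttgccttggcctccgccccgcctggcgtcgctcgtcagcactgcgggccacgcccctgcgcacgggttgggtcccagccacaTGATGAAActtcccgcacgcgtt

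A loose form of the half-site of the REV-ERB and ROR receptors was searched as TNGGTCA on both strands, with any base at N. It stood in the promoters of 2 of the 36 genes (Phgdh and Nars2). That is 5.56%, against 10.5% of all genes with a promoter there. The match in Phgdh reads TTGGTCA on the strand opposite to the one shown. Since any base may stand at N, a match need not be a receptor half-site. This motif was added after the values were seen. A match describes letters only, and no match says only that these letters are not in this window.

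Upstream of the enzymes, the transcript of ATF4 itself was not called. Atf4 was at 140 and 133 CPM in the Nr1d1+/+ libraries and at 117 and 143 CPM in the Nr1d1-/- libraries (log2 fold -0.07, SE 0.18, edgeR adjusted p = 0.8). Its sign turned without Nr1d1-/- replicate 1, to 0.075. Ddit3, which encodes the stress factor CHOP, was at 21.3 and 15.5 CPM against 21.9 and 23.95 CPM (log2 fold 0.32, SE 0.25, edgeR adjusted p = 0.352). The value for Ddit3 turned to -0.34 after correction for GC and length trends and to -0.05 with library size only.

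Of 8 genes of ATF4 and its partners, 1 rose and 1 fell. After GC and length correction none was called higher and 3 lower, and with library size only again none higher and 3 lower. Atf3, a repressor induced by stress, fell from 12.1 and 12.7 CPM to 5.94 and 5.34 CPM (log2 fold -1.14, SE 0.30, edgeR adjusted p = 0.0201). Atf5, a relative of ATF4, rose from 24.9 and 29.8 CPM to 49.6 and 39 CPM (log2 fold 0.69, SE 0.22, edgeR adjusted p = 0.0398). The call for Atf3 ended without Nr1d1+/+ replicate 1 (edgeR adjusted p = 0.0609) or replicate 2 (0.0999). The call for Atf5 ended without either Nr1d1+/+ library in turn (edgeR adjusted p = 0.223 and 0.0847) or without Nr1d1-/- replicate 1 (0.156), and correction for GC and length trends left a log2 fold of 0.02 (edgeR adjusted p = 0.963), while library size only gave 0.31 (0.317). Atf3 was called lower in both fits. Cebpb, a C/EBP partner of ATF4, and Nupr1, a stress-induced transcriptional regulator, were not called with TMM (log2 folds 0.04 and -0.155, edgeR adjusted p = 0.877 and 0.574). Cebpb was at -1.03 and Nupr1 at -0.81 after GC and length correction, both called lower (edgeR adjusted p = 0.00458 and 0.0169). With library size only, Nupr1 was called lower (edgeR adjusted p = 0.0453), as was Nfe2l2, the gene of the oxidative stress factor NRF2 (0.01565), and Cebpb was not (0.144). Cebpb, Nupr1 and Nfe2l2 were named after their values were seen.

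Of 12 genes that set the phosphorylation and recycling of eIF2, 4 rose and 2 fell, which is 50% called against 33.9% of all tested genes. After GC and length correction 4 were called higher and 1 lower, and with library size only 1 higher and 6 lower. Eif2ak3, which encodes the kinase PERK of the endoplasmic reticulum, fell from 30.7 and 35.4 CPM to 9.82 and 9.68 CPM (log2 fold -1.76, SE 0.24, edgeR adjusted p = 0.00235). Eif2ak1, the haem-regulated kinase, fell by 0.78 on the log2 scale (SE 0.25, edgeR adjusted p = 0.0378) and did not pass without Nr1d1+/+ replicate 2 (0.156) or Nr1d1-/- replicate 2 (0.134, log2 fold -0.51). Eif2ak4, which encodes GCN2, was at 24.7 and 26.7 CPM against 19.65 and 9.74 CPM and did not pass (edgeR adjusted p = 0.083). With library size only, Eif2ak4 was called lower (log2 fold -1.20, edgeR adjusted p = 0.0155). Of the 5 subunits of eIF2B, the factor that recycles eIF2, 4 rose: Eif2b2 (log2 fold 0.97), Eif2b3 (0.89), Eif2b4 (0.88) and Eif2b5 (0.73). Eif2b1 was at 49.1 and 44.6 CPM against 35.8 and 30 CPM and did not pass (edgeR adjusted p = 0.0815). Without Nr1d1+/+ replicate 2, Eif2b5 did not pass (edgeR adjusted p = 0.0877), and Eif2b3 did not without either Nr1d1+/+ library in turn (0.1905 and 0.0677) or without Nr1d1-/- replicate 2 (0.128). After GC and length correction Eif2b2 (log2 fold 0.55, edgeR adjusted p = 0.0632), Eif2b4 (0.50, edgeR adjusted p = 0.0764) and Eif2ak1 (-0.49, edgeR adjusted p = 0.162) did not pass, while Eif2b3, Eif2b5 and Eif2ak3 did, and Eif2ak2 and Eif2s1 were called higher (edgeR adjusted p = 0.029 and 0.0449). With library size only, Eif2b2 alone of the eIF2B subunits was called higher (log2 fold 0.59, edgeR adjusted p = 0.044), Eif2b3 (0.51), Eif2b4 (0.49) and Eif2b5 (0.36) did not pass (edgeR adjusted p = 0.187, 0.06255 and 0.154), and Eif2b1 was called lower (-0.89, edgeR adjusted p = 0.0082). Eif2ak1, Eif2ak2, Eif2ak4, Eif2b1, Eif2b3 and Eif2s1 were named after their values were seen.

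Of 18 other known ATF4 targets, 16 passed the filter on low counts, of which 4 rose and none fell (25% called). This 1-sided count changed with the scaling: after GC and length correction 3 were called higher and none lower, and with library size only none higher and 3 lower. In that last fit 8.65% of all tested genes were called higher and 29.8% lower. Ddit4, an inhibitor of mTORC1, rose from 12.4 and 12 CPM to 28 and 22.5 CPM (log2 fold 1.05, SE 0.25, edgeR adjusted p = 0.013). Eif4ebp1, a repressor of cap-dependent translation, rose by 0.72 on the log2 scale (SE 0.19, edgeR adjusted p = 0.0198). The amino-acid transporter genes Slc7a5 and Slc7a11 rose with log2 folds of 0.74 and 0.92 (edgeR adjusted p = 0.0162 and 0.0304). Trib3 was at 12 and 13 CPM against 15.4 and 17.8 CPM and did not pass (edgeR adjusted p = 0.239). Chac1 and Sesn2 were under 3 CPM in every library and did not pass (edgeR adjusted p = 0.563 and 0.821).

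All 4 calls were lost in some fits without 1 library. Such a fit leaves 1 library in a genotype, so a lost call alone does not show that the fold rested on that library. Without Nr1d1+/+ replicate 1 the edgeR adjusted p was 0.0504 for Ddit4, 0.097 for Eif4ebp1, 0.0764 for Slc7a5 and 0.152 for Slc7a11. Without Nr1d1+/+ replicate 2 it was 0.06855, 0.0735, 0.0611 and 0.0648 in the same order. Without Nr1d1-/- replicate 1, Eif4ebp1 (edgeR adjusted p = 0.0744), Slc7a5 (0.06125) and Slc7a11 (0.144) did not pass. After GC and length correction Ddit4 had a log2 fold of 0.55 and did not pass (edgeR adjusted p = 0.137), while Eif4ebp1, Slc7a5 and Slc7a11 did. With library size only none of the 4 passed, at log2 folds of 0.67 for Ddit4, 0.335 for Eif4ebp1, 0.35 for Slc7a5 and 0.54 for Slc7a11 (edgeR adjusted p = 0.0624, 0.194, 0.158 and 0.156).

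Among 13 partners of cytosolic charging, 3 rose and 1 fell. Beside Aimp2, Pstk, the kinase on the way to selenocysteinyl-tRNA, rose by 1.235 on the log2 scale (SE 0.32, edgeR adjusted p = 0.01855), and Aarsd1, an editing protein related to the alanyl enzyme, rose by 0.825 on the log2 scale (SE 0.225, edgeR adjusted p = 0.0229). Dtd1, which removes D-amino acids from transfer RNA, fell by 0.94 on the log2 scale (SE 0.25, edgeR adjusted p = 0.0201). Pstk and Aarsd1 did not pass without Nr1d1+/+ replicate 2 (edgeR adjusted p = 0.0961 and 0.1545) or Nr1d1-/- replicate 1 (0.0835 and 0.0562), and Dtd1 did not without Nr1d1+/+ replicate 1 (0.127). Pstk (log2 fold 0.98, edgeR adjusted p = 0.0563) and Aarsd1 (0.36, edgeR adjusted p = 0.249) did not pass after GC and length correction, nor did they with library size only (0.85 and 0.45, edgeR adjusted p = 0.0595 and 0.118). Of the 13 genes, 1 was then called higher and 1 lower after the correction, and 1 higher and 4 lower with library size only; Aimp2 and Dtd1 kept their calls in both fits.

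Among 10 partners of mitochondrial charging found in the files, 1 rose and 2 fell. Trmu, which thiolates mitochondrial transfer RNAs, rose from 8.33 and 7.71 CPM to 18 and 16.9 CPM (log2 fold 1.12, SE 0.265, edgeR adjusted p = 0.0133). Trit1, which adds an isopentenyl group, fell by 0.99 on the log2 scale (SE 0.31, edgeR adjusted p = 0.038), and Gatc, a subunit of the amidotransferase that makes mitochondrial glutaminyl-tRNA, fell by 0.635 on the log2 scale (SE 0.21, edgeR adjusted p = 0.0474). Gatc did not pass without any 1 of the libraries (edgeR adjusted p from 0.0646 to 0.21). Trmu did not pass without Nr1d1+/+ replicate 1 (edgeR adjusted p = 0.0527) or replicate 2 (0.0832), and Trit1 did not without either Nr1d1+/+ library in turn (0.0844 and 0.118) or without Nr1d1-/- replicate 1 (0.135). Trmu also did not pass after GC and length correction (log2 fold 0.73, edgeR adjusted p = 0.0726) or with library size only (0.745, edgeR adjusted p = 0.0582). The 10 genes then had none called higher and 2 lower after the correction, and none higher and 4 lower with library size only.

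The neighbouring metabolic enzymes went both ways. Of 20 folate and glycine genes outside the 8 above, Tyms and Fpgs rose and Mthfd2l and Sfxn1 fell. Tyms, the thymidylate synthase, went from 78.9 and 69.7 CPM to 220.1 and 196 CPM (log2 fold 1.49, SE 0.18, edgeR adjusted p = 0.00207), and Sfxn1, a mitochondrial serine transporter, from 47.4 and 56 CPM to 29.8 and 25 CPM (log2 fold -0.92, SE 0.21, edgeR adjusted p = 0.0119). Without Nr1d1+/+ replicate 1, Fpgs and Mthfd2l did not pass (edgeR adjusted p = 0.116 and 0.0546), and without Nr1d1+/+ replicate 2, Mthfd2l and Sfxn1 did not (0.0705 and 0.0711). Fpgs did not pass after GC and length correction (log2 fold 0.49, edgeR adjusted p = 0.141) or with library size only (0.51, edgeR adjusted p = 0.119). Of the 20 genes, 1 was called higher and 2 lower after the correction, and 1 higher and 4 lower with library size only.

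Of 15 genes of asparagine, aspartate, glutamine, arginine and proline handling, 2 rose and 2 fell. Asl, the argininosuccinate lyase, rose by 0.90 on the log2 scale (SE 0.17, edgeR adjusted p = 0.00599), and Pycrl, a cytosolic relative of Pycr1, rose by 1.25 on the log2 scale (SE 0.28, edgeR adjusted p = 0.0108). Got2, the mitochondrial aspartate aminotransferase, fell by 0.53 on the log2 scale (SE 0.17, edgeR adjusted p = 0.0447). Got2 did not pass without any 1 of the libraries (edgeR adjusted p from 0.0546 to 0.151). Pycrl had a log2 fold of 0.64 after GC and length correction and did not pass (edgeR adjusted p = 0.118), while Asl and Got2 passed. Of the 15 genes, 1 was then called higher and 1 lower, and with library size only 2 were called higher and 3 lower.

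The direction of a call among the 46 genes went with base composition. The 10 genes that rose had 48.4% to 60.9% GC in their transcripts, with a median of 53.7%, and the 5 that fell had 41.2% to 48.3%, with a median of 47.2%. These ranges did not overlap, and for the 8 synthetases that rose the lowest value was 51.2%. Across the 46 genes, Spearman's rho of the log2 fold with GC content was 0.53, against 0.31 over 14642 genes, and with transcript length it was -0.22, against -0.32. Genes of a library are not independent, so these are descriptions.

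**Figure D4:**
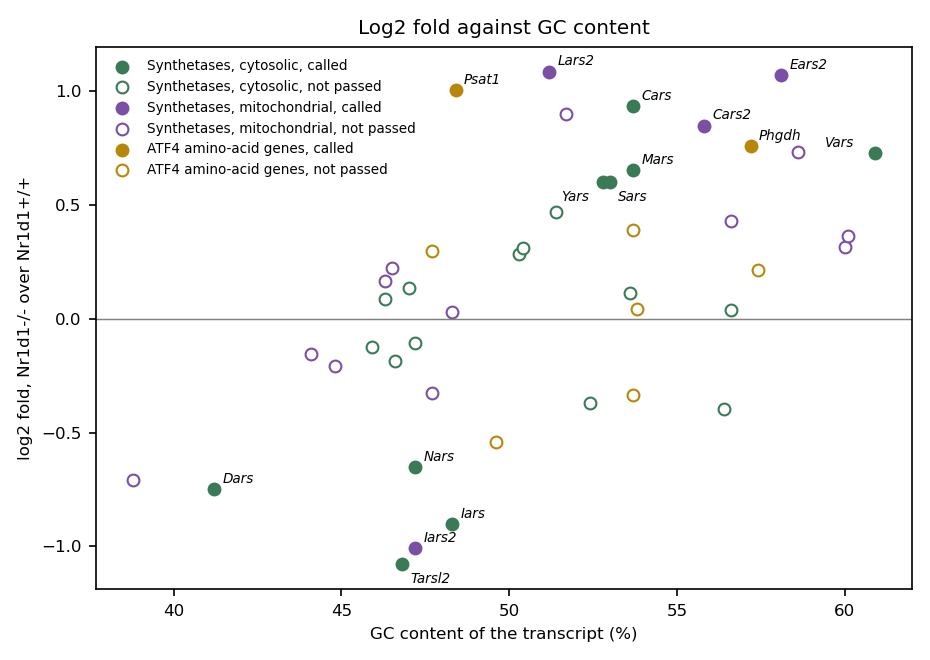
Log2 fold of synthetase and amino-acid genes (Nr1d1-/- over Nr1d1+/+) against the GC content of its transcript in percent. Filled points are called genes and open points those that did not pass; filled points below 0 lie between 41.2% and 48.3% GC and those above 0 between 48.4% and 60.9%.

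After correcting every library for trends with GC content and length, fewer genes were called in all (22.2% of the tested genes, 11.4% higher and 10.8% lower), and 5 of the 15 calls among the 46 genes remained: Cars, Sars, Lars2 and Psat1 higher and Iars2 lower. Psat1 had a log2 fold of 1.15 (edgeR adjusted p = 0.0103) and Iars2 one of -0.59 (edgeR adjusted p = 0.0466). Phgdh moved from 0.76 to 0.33 (edgeR adjusted p = 0.24), Cars2 to 0.48 (edgeR adjusted p = 0.221) and Ears2 to 0.66 (edgeR adjusted p = 0.14). The cytosolic genes that fell had log2 folds of -0.52 (Dars), -0.56 (Iars), -0.45 (Nars) and -0.80 (Tarsl2) and did not pass (edgeR adjusted p = 0.05975, 0.0818, 0.0926 and 0.0735), and Vars had 0.47 (0.0813). Mars and Yars missed the threshold narrowly at 0.61 and 0.59 (edgeR adjusted p = 0.0509 and 0.0546).

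**Figure D5:**
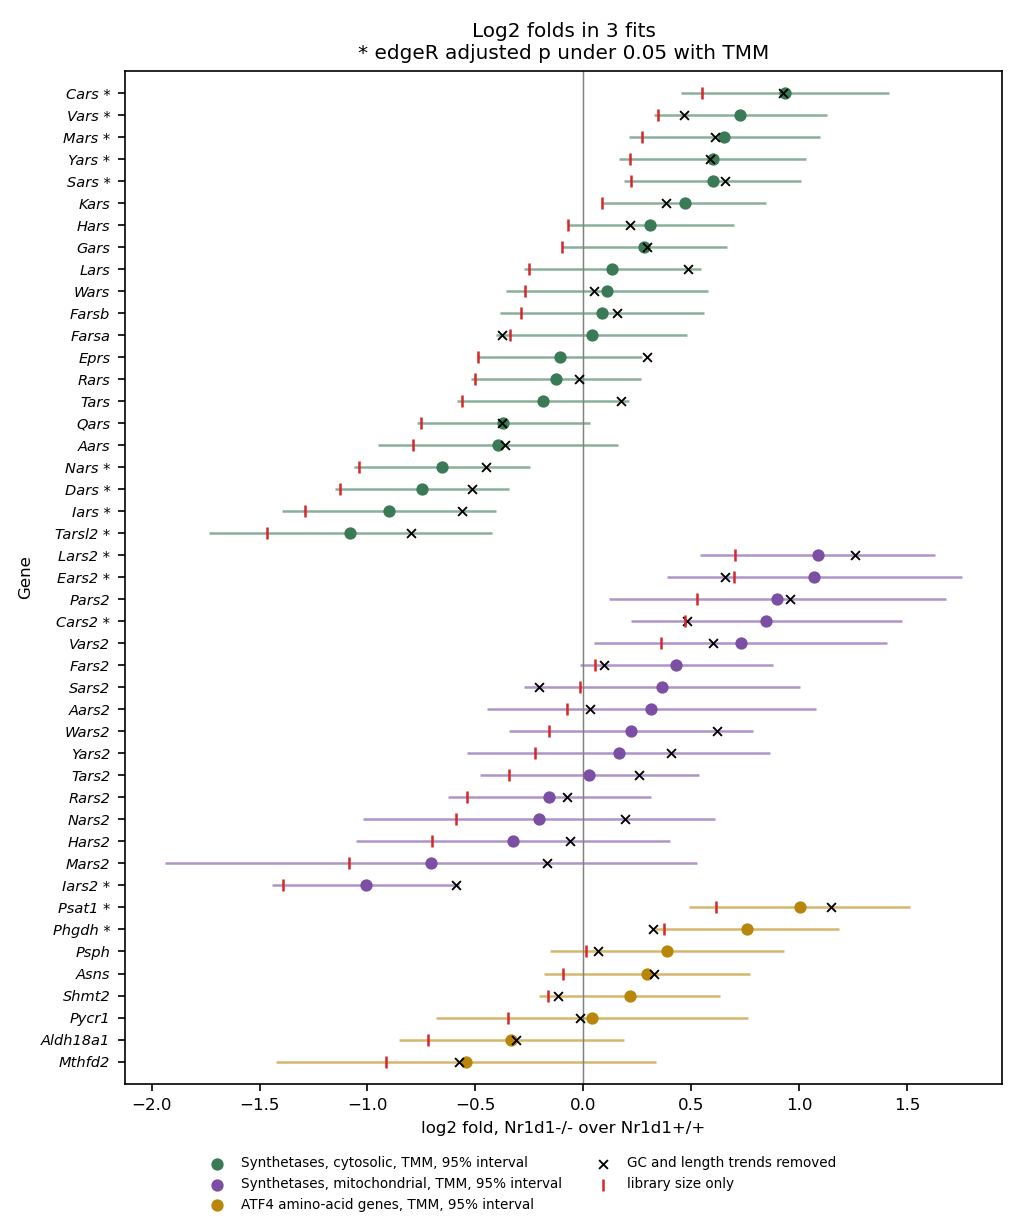
Log2 fold of synthetase and amino-acid genes (Nr1d1-/- over Nr1d1+/+) with its 95% interval after TMM scaling (points and lines, coloured by set), after correction for GC and length trends (crosses) and with library size only (red ticks). The ticks lie to the left of the points in every gene shown, while the crosses lie on either side.

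Scaling set the balance of higher and lower calls. With library size in place of TMM the median log2 fold of all tested genes was -0.38, 8.65% of them were called higher and 29.8% lower (38.5% in all), so that higher calls made up 22.5% of the calls against 48.8% with TMM. Among the 46 genes 1 was then called higher (Lars2, log2 fold 0.70, edgeR adjusted p = 0.0195) and 11 lower. The 9 genes that lost a call of higher were Cars, Cars2, Ears2, Mars, Phgdh, Psat1, Sars, Vars and Yars, each still with a log2 fold above 0. Iars2, Iars, Dars, Nars and Tarsl2 were called lower in that fit too. The 6 further genes called lower there, not called with TMM, were Aars (log2 fold -0.79, edgeR adjusted p = 0.0353), Aldh18a1 (-0.72, 0.0436), Eprs (-0.49, 0.0433), Qars (-0.75, 0.00783), Rars (-0.50, 0.0452) and Tars (-0.56, 0.0347).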

How the data were processed

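Total RNA of 4 tumour samples was made into libraries with a SMARTer Stranded kit, per the labels' protocols, and the submitters' processing notes name TopHat and mm10. The authors deposited 1 table of raw read counts per gene symbol for each sample. Which counting tool and annotation were used, and whether by strand, is not stated in the labels. The 46 genes and all gene lists were chosen with earlier results of these data known. Genes were named by a rule: all 8 amino-acid genes, every called synthetase, 9 other synthetases of interest, up to 4 called genes of each pathway list by lowest p, and Atf4, Ddit3, Trib3, Chac1 and Sesn2; others named were picked after their values were seen. A few items that the rule names are not reported here.

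Genes with enough counts (filterByExpr, minimum count 10) were tested for genotype with the quasi-likelihood test of edgeR 4.0.16 with TMM scaling, on 2 libraries per genotype (2 residual degrees of freedom), with Benjamini-Hochberg adjustment over 14801 genes. The TMM factors were 1.11 and 1.18 for the Nr1d1+/+ libraries and 0.859 and 0.895 for the Nr1d1-/- libraries. Alternatives were DESeq2 1.42.0, its size factors in edgeR, library size only, no filter on low counts, each library left out, a block for the replicate number, and removal of GC and length trends (natural splines, 5 degrees of freedom). For the latter, transcript GC content and length came from GENCODE for 22863 of 23238 symbols, 666 of them through synonyms. Levels per kilobase divide by the length of the longest coding transcript. The labels do not pair the samples. Replicates differed beyond counting noise (chi-square per gene 43 and 55.9), so no library was counted as a copy of another. Totals of 15905404 to 19116279 counts make 1 count worth 0.0473 to 0.0733 CPM; intervals do not cover differences between animals beyond these samples.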

Additional observations from a re-analysis of the deposited data

How the results depend on the processing

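With 2 libraries per genotype, leaving out 1 library keeps only 1 in that genotype. Many of the 15 calls among the 46 genes were lost in such fits. A lost call alone does not show that a fold rested on that library. Without Nr1d1+/+ replicate 2, Dars moved from a log2 fold of -0.748 to -0.785 and Cars2 from 0.848 to 0.853. Ears2 moved from 1.071 to 0.730 in the same fit. All 15 were kept with DESeq2, with its size factors and with the replicate block, 10 with no filter, 6 with library size only and 5 after GC and length correction. Among the other named genes, Aarsd1, Atf5, Eif2ak1, Eif2b3, Gatc, Got2, Slc7a11 and Trit1 lost their calls with no filter (edgeR adjusted p from 0.0511 to 0.0686), Gatc and Got2 with DESeq2 size factors (0.0519 and 0.0509) and Gatc with DESeq2 (0.0572). The cause of these changes was not tested. Depth limits Mars2 most, with 15 counts in 1 library.

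With library size only, 1281 genes were called higher and 4410 lower in all. Of the cytosolic synthetases, 0 were then called higher and 9 lower (median log2 fold -0.29). Of the mitochondrial synthetases 1 was called higher and 1 lower (median -0.075), and of the amino-acid genes 0 higher and 1 lower (median -0.13). With GC and length trends removed, 1581 genes were called lower in all, and 2 cytosolic synthetases higher and 0 lower (median 0.175). In that fit 1 mitochondrial synthetase was called higher and 1 lower, and 1 amino-acid gene higher and 0 lower (median 0.03). With no filter, 2 cytosolic and 1 mitochondrial synthetase were called higher, and 4 cytosolic and 1 mitochondrial lower.

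Over the fits that leave out 1 library, calls in all genes ran from 1212 to 2463 higher and 1277 to 2548 lower. Cytosolic synthetases called higher ran from 1 to 3 and lower from 0 to 5, with medians from -0.012 to 0.108. Mitochondrial synthetases called higher ran from 1 to 3, with medians from 0.086 to 0.338. Amino-acid genes called higher ran from 0 to 2, with medians from 0.170 to 0.365.

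Genes that were not called changed sign in some fits. With library size only, log2 folds turned to -0.075 for Aars2, -0.093 for Asns, -0.054 for Ddit3, -0.34 for Farsa, -0.29 for Farsb, -0.10 for Gars, -0.07 for Hars, -0.25 for Lars, -0.35 for Pycr1, -0.017 for Sars2, -0.23 for Sesn2, -0.16 for Shmt2, -0.345 for Tars2, -0.27 for Wars, -0.16 for Wars2 and -0.22 for Yars2. With GC and length trends removed they turned to -0.085 for Chac1, -0.34 for Ddit3, 0.29 for Eprs, -0.38 for Farsa, 0.19 for Nars2, -0.017 for Pycr1, -0.205 for Sars2, -0.061 for Sesn2, -0.12 for Shmt2, 0.175 for Tars and -0.031 for Trib3. With no filter Tars2 was at -0.0003. Over the fits that leave out 1 library, sign changes were seen for Aars (-0.756 to 0.006), Aars2 (-0.078 to 0.635), Atf4 (-0.224 to 0.075), Farsa (-0.009 to 0.087), Farsb (-0.132 to 0.274), Hars2 (-0.823 to 0.029), Lars (-0.029 to 0.254), Nars2 (-0.513 to 0.110), Pycr1 (-0.352 to 0.495), Tars2 (-0.186 to 0.212), Wars (-0.012 to 0.222) and Yars2 (-0.110 to 0.430), each given as its lowest and highest log2 fold.

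The replicate block gave 2622 genes called higher and 2704 lower, against 2446 and 2565 without it. Same-numbered libraries deviated together with a correlation of only 0.026, and the numbers pair no samples in the labels. Beside the 15 calls, the block added Kars (edgeR adjusted p = 0.0411) and Pars2 (0.0432).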
